A study of Citrus sinensis with 12 samples.

Results

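A set of 195 genes in sweet orange (Citrus sinensis) roots stood at least 2-fold higher under excess copper than at the control copper level, by a similar amount at pH 3 and at pH 4.8. The genes were chosen by their measured copper differences. The difference between 300 µM and 0.5 µM copper in log2(mean FPKM + 1), where FPKM is fragments per kilobase of gene scaled to library depth, had to be at least 1 at each pH. Both differences had to lie less than 1 apart, and the mean had to reach 5 FPKM in both groups at 300 µM copper. Of 20122 listed genes, 18730 carry an annotated identifier (starting with Cs or orange1.1t), and the 195 are 1.04% of these.

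Seedlings were treated for 17 weeks at pH 4.8 or pH 3 with 0.5 or 300 µM CuCl2, and the labels name pH 4.8 and 0.5 µM as the control levels. Each of the 4 groups (pH 4.8 with 0.5 µM, pH 3 with 0.5 µM, pH 4.8 with 300 µM, pH 3 with 300 µM copper) had 3 libraries of whole-root RNA. Each library came from the pooled roots of 4 seedlings, so errors and p-values measure the spread between pools, not between plants. In whole roots, more RNA of a gene per cell and more cells that express it cannot be told apart. The files pair no identifier with a gene name or function, and a search of RefSeq's list of genes matched 0 identifiers. Only identifiers and positions can be printed, the root label was not checked against marker genes, and no lists of gene functions were made. Positions are those of the files, whose genome build is not given in the sources used here.

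Copper is a cofactor of plant enzymes in respiration, photosynthesis and the removal of superoxide. In excess it drives the formation of reactive oxygen species and displaces other metals from proteins, and roots, which meet it first, hold back much of it. Plants answer with chelators such as metallothioneins and phytochelatins, with metal pumps and transporters, and with antioxidant enzymes. Acid solution keeps more copper in free ionic form and adds a stress of its own through protons. Alike here means only that both copper differences lay less than 1 log2 unit apart, not that they were shown to be equal.

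Low FPKM values, which step by whole fragments, gave depths between 17710000 and 22780000 fragments per library. A 1 kb gene with 3 fragments then has 0.132 to 0.169 FPKM, which is taken as the floor and reflects counting error alone. Shorter genes have a higher floor, and the shortest of the 195 spans 189 bp. Libraries at pH 3 with 300 µM copper spread most. The median SD of the 195 genes was 0.20 log2 units there, against 0.12 at pH 4.8 with 300 µM copper and 0.16 in each group at 0.5 µM. Replicate 3 at pH 3 with 300 µM copper was the lowest of its group at 110 of the 195 genes.

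Together the 195 genes took up a small part of the transcriptome, larger at 300 µM than at 0.5 µM copper. Their summed level was 3290.1, 3289.3 and 3559.7 FPKM in the pH 4.8 libraries at 0.5 µM copper and 4016.2, 3714.1 and 4161.2 FPKM in the pH 3 libraries at 0.5 µM. At 300 µM copper it was 10091, 9708.8 and 10309 FPKM at pH 4.8, and 11518, 11267 and 9909.5 FPKM at pH 3. All 6 libraries at 300 µM were above all 6 at 0.5 µM, which the choice of the genes fixed, and the sums at pH 3 overlapped with those at pH 4.8 only at 300 µM. As a share of all FPKM in a library, the genes held 0.573% ± 0.027 (SD, n = 3) at pH 4.8 and 0.704% ± 0.0485 at pH 3 without excess copper. With it they held 1.81% ± 0.0635 at pH 4.8 and 1.97% ± 0.138 at pH 3. The ratio of the summed levels at 300 and 0.5 µM was 2.75 at pH 3 and 2.97 at pH 4.8.

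**Figure D1:**
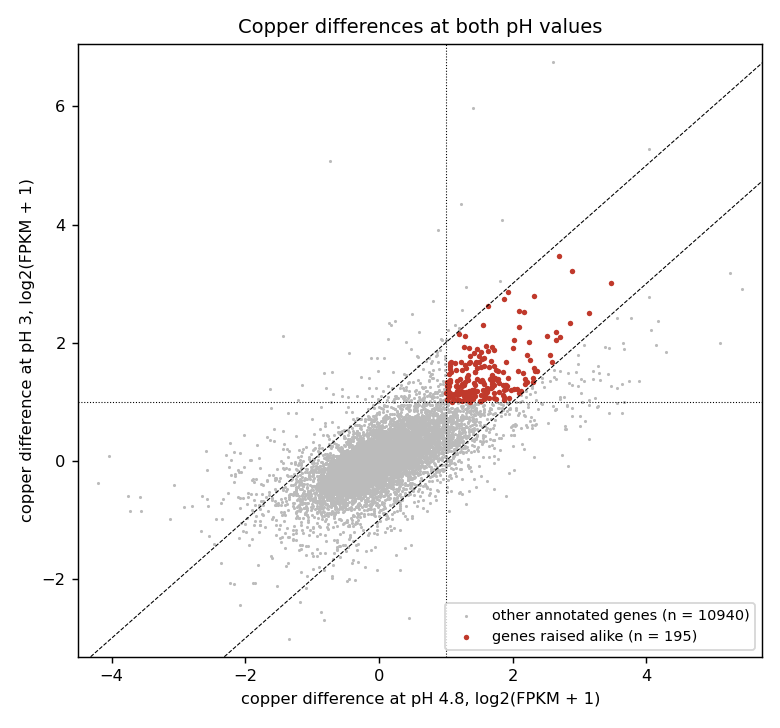
Difference between 300 and 0.5 µM copper in log2(mean FPKM + 1) at pH 4.8 (x axis) and pH 3 (y axis), one point per annotated gene with at least 5 FPKM in both groups at 300 µM; red points are the 195 genes and grey points the others. Dotted lines mark a difference of 1 and dashed lines a gap of 1 between the differences, so the red points fill the area that the selection defines and thin out beyond 2 on either axis.

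Most of the differences were moderate. The copper difference had a median of 1.34 at pH 3 (range 1.00 to 3.47) and of 1.52 at pH 4.8 (range 1.01 to 3.48). The smaller of both differences was under 1.5 for 150 genes, between 1.5 and 2 for 30, and at least 2 for 15. In the 11135 annotated genes with at least 5 FPKM in both groups at 300 µM, the medians were 0.03 and -0.00. The gap between the differences was under 0.25 for 82 of the 195 genes and 0.5 or more for 54. Copper made the larger difference at pH 4.8 for 117 genes and at pH 3 for 78. None of these values was tested, because they selected the genes.

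Libraries of the groups compared were separate for nearly all of the genes. At pH 3 the 3 libraries at 300 µM copper were all above the 3 at 0.5 µM for 191 of the 195 genes, where 24.5% of all 19204 genes tested had this order. At pH 4.8 it held for 194 genes, against 30.9% of all tested, and at both pH values for 191, against 15.7%. These shares follow from the selection and are not evidence of a response. For 184 genes all 6 libraries at 300 µM copper exceeded all 6 at 0.5 µM, against 11.5% of all tested, which the selection likewise favours.

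The 4 genes whose libraries overlapped at pH 3 show where a mean can hide a wide spread. They were picked out after their values were seen. Cs3g17035 on chromosome 3 (20794686 to 20796762) measured 8.32, 0.00 and 15.99 FPKM at pH 3 with 300 µM copper, against 2.69, 1.93 and 4.23 at 0.5 µM. Cs9g01634 on chromosome 9 (405130 to 405606) was at 3.27, 0.75 and 14.18 FPKM against 2.23, 1.22 and 3.48. In both genes replicate 2 of the group with 300 µM copper lay below every library at pH 3 with 0.5 µM and replicate 3 above, and Cs9g01634 is also the gene whose libraries overlapped at pH 4.8. The third, orange1.1t02833 (unplaced, 43493515 to 43494301), had levels of 12.62, 5.00 and 1.31 FPKM against 1.41, 0.27 and 0.61. The last, orange1.1t05631 (88833644 to 88833832), was at 5.61, 10.17 and 1.98 FPKM against 3.07, 0.85 and 1.70. It spans 189 bp, the shortest of the set, so its low values rest on few fragments. The overlap at pH 3 came from 1 low library of the group with 300 µM copper in each gene but Cs9g01634, where it came from 2.

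**Figure D2:**
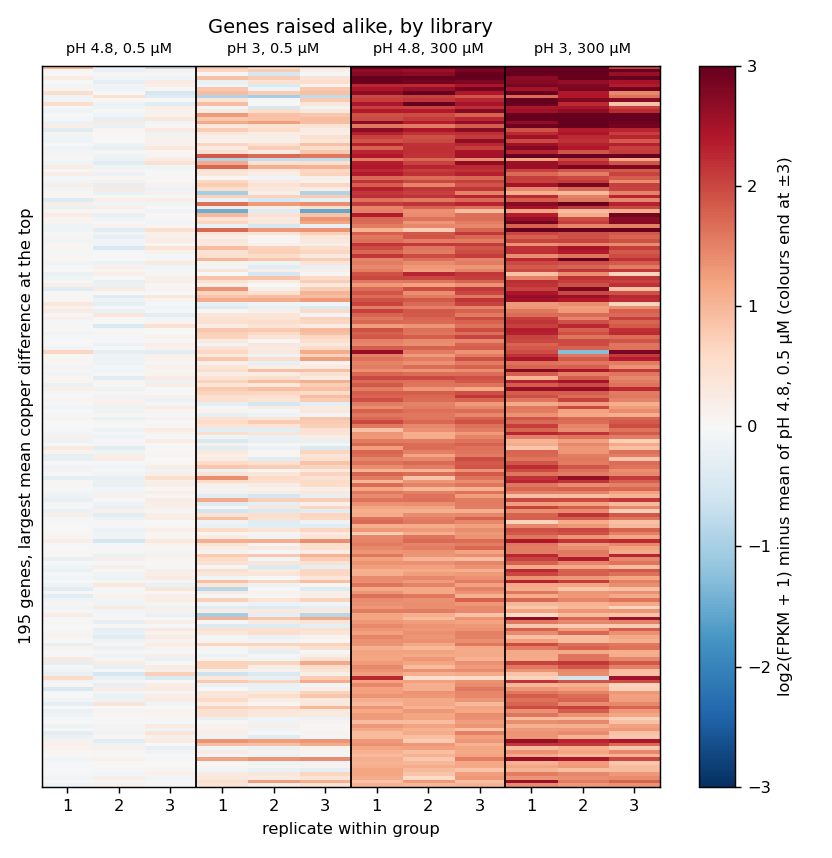
Each row is one of the 195 genes, sorted by its mean copper difference, and each column one of the 12 libraries; colour is log2(FPKM + 1) minus the mean of the 3 libraries at pH 4.8 with 0.5 µM copper, with colours ending at ±3. The 6 columns at 300 µM copper are red for nearly all rows, and the 3 columns at pH 3 with 0.5 µM copper are pale red for more rows than they are blue.

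The steepest genes, by the smaller of both copper differences, were low or moderate in roots without excess copper. First among them was orange1.1t04805 on unplaced sequence (76667709 to 76668554), with 5.05, 3.87 and 3.54 FPKM at pH 3 and 5.71, 1.94 and 1.09 FPKM at pH 4.8 when copper was 0.5 µM. With 300 µM copper it reached 81.02, 27.63 and 13.00 FPKM at pH 3 and 43.84, 49.59 and 34.28 FPKM at pH 4.8, differences of 3.01 and 3.48. The libraries at pH 3 with copper spread over a wide range, and without replicate 1 of that group the difference at pH 3 was 2.05.

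The gene orange1.1t03944 on unplaced sequence (60979887 to 60982461) stayed at or below 1.12 FPKM in every library at 0.5 µM copper, at 1.07, 1.12 and 0.98 FPKM at pH 4.8 and 1.11, 0.42 and 0.99 FPKM at pH 3. At 300 µM it stood at 12.97, 12.45 and 17.07 FPKM at pH 4.8 and at 17.06, 19.53 and 11.53 FPKM at pH 3. The 6 libraries with copper overlapped between pH values, and the means stood 13.4-fold (pH 4.8) and 19.1-fold (pH 3) above those at 0.5 µM.

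Cs4g01680 on chromosome 4 (506220 to 507896) had the largest copper difference at pH 3 of all 195 genes, 3.47, with 2.69 at pH 4.8. It was at 4.30, 3.39 and 4.55 FPKM at pH 4.8 and 6.72, 7.51 and 4.59 FPKM at pH 3 without excess copper. Under copper it was at 30.81, 28.76 and 35.56 FPKM at pH 4.8 and at 66.51, 95.69 and 76.20 FPKM at pH 3. Unlike the previous gene, its libraries with copper did not overlap between pH values.

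Cs6g05260 on chromosome 6 (6526985 to 6531058) was at 0.62, 0.31 and 0.28 FPKM at pH 4.8 and 1.58, 1.36 and 0.89 FPKM at pH 3 when copper was 0.5 µM, and at 10.92, 11.67 and 11.61 FPKM and 8.12, 11.49 and 15.88 FPKM with 300 µM. It was higher at pH 3 than at pH 4.8 with 0.5 µM copper and overlapped between pH values with 300 µM, so its fold change was 28.3 at pH 4.8 and 9.27 at pH 3 while its copper differences, damped by the pseudocount of 1, were 3.14 and 2.49. Gaps of this kind show that similar differences on the log2(FPKM + 1) scale can stand for unlike fold changes in genes near 1 FPKM.

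Cs3g19960 on chromosome 3 (23096548 to 23101158) had means of 11.2 ± 2.19 and 87.2 ± 4.14 FPKM with 0.5 and 300 µM copper at pH 4.8 (SD, n = 3), and of 13.8 ± 3.71 and 73.1 ± 6.77 FPKM at pH 3. Cs6g21320 on chromosome 6 (20496692 to 20498832) had means of 11.8 ± 1.54 and 62.6 ± 4.76 FPKM at pH 4.8, and of 10.7 ± 2.20 and 79.8 ± 13.9 FPKM at pH 3. In both genes the groups at 0.5 and 300 µM copper did not overlap at either pH, and under copper pH 4.8 had the higher mean in Cs3g19960 and pH 3 in Cs6g21320, where the libraries overlapped.

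**Figure D3:**
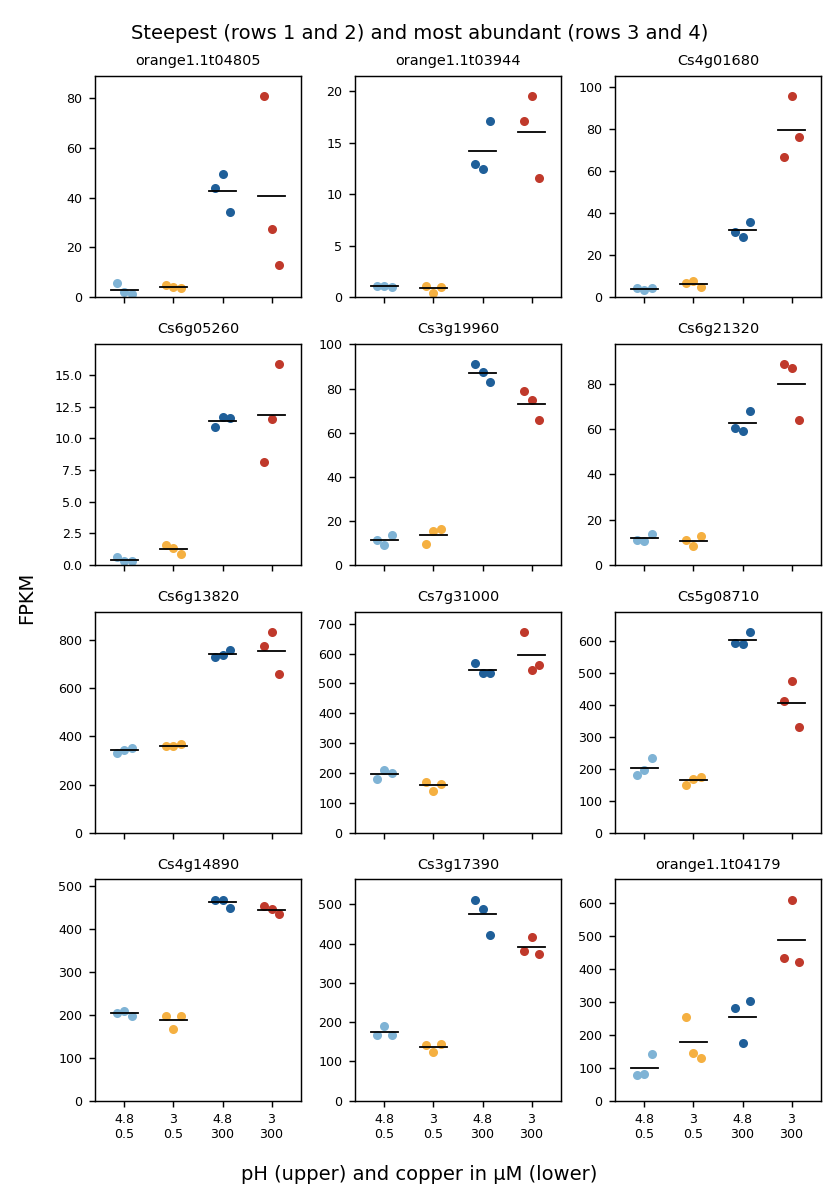
FPKM of 12 genes in all 12 libraries (one point each; black lines are group means), by pH and copper level, each panel with its own axis from 0. The upper 6 panels are the genes with the largest smaller-of-both copper difference and the lower 6 those with the highest mean at 300 µM copper; the former start near the axis at 0.5 µM, while the latter have means of 100 FPKM or more there.

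Abundant transcripts were also among the 195. In 34 genes both groups at 0.5 µM copper already had at least 20 FPKM, with group medians of 43.8 FPKM at pH 4.8 and 54.1 FPKM at pH 3 that stood at 128 and 130 FPKM under copper. Another 159 genes are called moderate here, with medians of 4.23 and 5.75 FPKM at 0.5 µM and 14.2 and 16.2 FPKM at 300 µM. A moderate gene could still be near silent at 1 pH, as Cs6g05260 was at pH 4.8. The lowest means in this class at 0.5 µM copper were 0.167 FPKM at pH 4.8 and 0.44 FPKM at pH 3. Only 2 genes were under 1 FPKM in both groups at 0.5 µM, so near silence at both pH values was rare in the set. These were orange1.1t02833, described above, and Cs2g13800 on chromosome 2 (10389443 to 10390344). Cs2g13800 was at 0.16, 0.00 and 0.13 FPKM at pH 4.8 and 0.91, 0.00 and 0.92 FPKM at pH 3 when copper was 0.5 µM, and at 4.98 to 6.96 FPKM and 5.13 to 7.13 FPKM with 300 µM.

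The most abundant gene was Cs6g13820 on chromosome 6 (15215443 to 15216901). It was at 332.66, 344.57 and 349.95 FPKM at pH 4.8 and 358.96, 360.66 and 366.31 FPKM at pH 3 when copper was 0.5 µM. Under 300 µM copper it was at 729.63, 736.70 and 759.66 FPKM at pH 4.8 and at 773.82, 834.23 and 656.70 FPKM at pH 3. Its copper differences, 1.11 at pH 4.8 and 1.06 at pH 3, lay close to the limit of 1, and the one at pH 3 was 0.98 without replicate 2 of pH 3 with 300 µM copper. No difference between pH values was called for it (limma adjusted p = 0.54).

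Cs7g31000 on chromosome 7 (30890955 to 30894940) stood at 197 ± 16.0 and 159 ± 15.8 FPKM at pH 4.8 and pH 3 (SD, n = 3), and at 546 ± 18.3 and 594 ± 69.3 FPKM under copper. Cs4g14890 on chromosome 4 (13382485 to 13385000) stood at 204 ± 5.62 and 187 ± 17.4 FPKM, and at 463 ± 10.6 and 446 ± 8.91 FPKM under copper. Among the 6 most abundant genes, the smallest SD at pH 3 with 300 µM copper belonged to Cs4g14890. Cs3g17390 on chromosome 3 (21124861 to 21126839) stood at 174 ± 12.8 and 136 ± 11.2 FPKM, and at 474 ± 46.2 and 390 ± 22.3 FPKM under copper. The gene orange1.1t04179 on unplaced sequence (65096373 to 65098221) was the most uneven of them, at 100 ± 34.6 and 176 ± 67.4 FPKM, and at 253 ± 67.3 and 488 ± 106 FPKM under copper. The 10 most abundant of the 195 held 38.9% to 46.6% of the summed level of the set in a library.

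Among genes with both differences of at least 2, those with the smallest gap were closest to a response of equal size. Cs3g22470 on chromosome 3 (25102668 to 25106127) was at 12.80, 14.39 and 15.49 FPKM at pH 4.8 and 16.51, 16.32 and 20.66 FPKM at pH 3 when copper was 0.5 µM, and at 62.14, 56.46 and 63.64 FPKM and 86.02, 70.66 and 73.50 FPKM with 300 µM. Its mean with 300 µM copper was 4.27 times that with 0.5 µM at pH 4.8 and 4.30 times at pH 3, and pH 3 was higher at both copper levels. Cs2g01740 on chromosome 2 (588634 to 592152) had ratios of 5.76 and 4.73, with means of 3.59 ± 0.411 and 20.7 ± 1.36 FPKM at pH 4.8 and of 4.42 ± 0.223 and 20.9 ± 2.80 FPKM at pH 3 (SD, n = 3). The gene orange1.1t04173 on unplaced sequence (64959266 to 64961437) had ratios of 5.36 and 5.44, with means of 2.98 ± 0.900 and 16.0 ± 2.00 FPKM and of 6.16 ± 0.301 and 33.5 ± 1.89 FPKM. The 4 groups of this gene did not overlap, and orange1.1t03944, above, was the fourth gene of this kind.

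Copper differences were also read in libraries that had not chosen the genes. The criteria were applied to 2 replicates of each group, and the differences were taken from the libraries of the remaining replicate number. The genes chosen in this way are not the same as the 195, which include 157 of 194, 163 of 197 and 171 of 222 of them with replicates 1, 2 and 3 held out. With replicate 1 held out, 194 genes were chosen, and the held-out libraries gave medians of 1.38 at pH 3 and 1.63 at pH 4.8. Differences of at least 1 at both pH values were found for 133 of the 194 (68.6%), against 2.57% of the 11135 annotated genes with at least 5 FPKM in both groups at 300 µM. With replicate 2 held out, the medians were 1.45 and 1.55 and 143 of 197 genes (72.6%) reached 1 at both, against 2.93%. With replicate 3 held out, the medians were 1.09 and 1.42 and 116 of 222 genes (52.3%) did, against 2.16%. The lower value at pH 3 in the last case goes with the low replicate 3 at pH 3 with 300 µM copper, whose part in the result was not tested. With replicates 1, 2 and 3 held out, 193 of 194, 189 of 197 and 220 of 222 chosen genes were above 0 at pH 3, and 194, 196 and 222 were at pH 4.8. These values are a description and not a test of the set. The 3 choices share libraries and many genes, and the genes they are set against were not chosen for a copper difference.

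**Figure D4:**
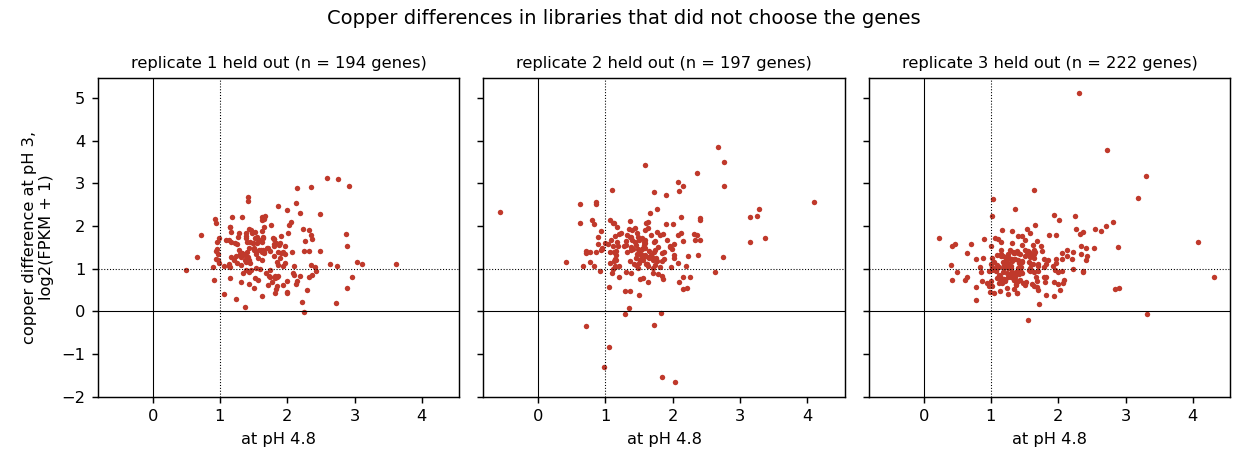
Copper differences at pH 4.8 (x axis) and pH 3 (y axis) in log2(FPKM + 1), read in the 4 libraries of the replicate number named above each panel, for genes chosen from the libraries of the other numbers. Solid lines mark 0 and dotted lines 1; most points stay above and right of 0, and fewer reach 1 at pH 3 with replicate 3 held out (127 of 222) than with replicate 1 (146 of 194) or 2 (165 of 197).

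How the genes stood at pH 3 against pH 4.8 was tested with the difference between the pH values averaged over both copper levels. In this balanced design that contrast is a different combination of the 4 groups from the copper differences and the gap that chose the genes, and its error is uncorrelated with theirs as long as the groups vary equally. The groups did not vary equally. In the 195 genes at pH 3, the libraries with 300 µM copper varied more than those with 0.5 µM (median SD 0.20 against 0.16). At pH 4.8 they varied less (0.12 against 0.16). Both inequalities would push genes chosen for high copper differences toward a higher average at pH 3. In all genes tested, the inequality at pH 3 was of the same kind (0.179 against 0.115). At pH 4.8 it went the other way there (0.126 against 0.115), which would push toward a lower average at pH 3. The criterion on the level at 300 µM is not independent of the contrast either. The counts that follow may therefore lean in the direction they report. Low pH raised 92 of the 195 genes (47.2%) in limma at an adjusted p under 0.05, where 21.6% of the 19204 genes tested were called higher. It lowered 22 (11.3%), where 28.4% of all genes were called lower, and 81 were not called. These calls rest on the average, and some of the genes called differed in direction between copper levels. Among the 22, orange1.1t02784 was higher at pH 3 with 0.5 µM copper. All 195 genes were among those tested. The median difference was 0.24 log2 units in the 195 genes and -0.03 in all genes tested. Among the 11135 annotated genes with at least 5 FPKM in both groups at 300 µM copper, 23.4% were called higher and 29.1% lower. Other groups of genes that copper raised, described further below, also had more called higher than lower. An excess of higher calls is thus not particular to the 195.

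The same average was then read in libraries that had not chosen the genes, as a description added after the data were seen. With replicate 1 held out, 147 of the 194 genes chosen from the other libraries (75.8%) were higher at pH 3, with a median of 0.25. With replicate 2 held out it was 142 of 197 (72.1%) with a median of 0.21, and with replicate 3 held out 145 of 222 (65.3%) with a median of 0.15. In all annotated genes that met the level criterion in the choosing libraries, 46.0% to 48.7% were higher at pH 3, with medians from -0.03 to -0.01. The direction thus recurred in each held-out number, and its size was smallest with replicate 3 held out.

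Sizes were mostly small. Of the 92 genes raised by low pH, 47 had an average difference of at least 0.5 and 7 of at least 1, and of the 22 lowered, 3 reached -0.5. The moderate genes had 78 of 159 called higher and 16 lower, the abundant genes 14 of 34 higher and 6 lower, and neither of the 2 near-silent genes was called. Of all 19204 genes tested, at any level, 21.6% were called higher and 28.4% lower. Their shares by size or by class were not counted, so the sizes and classes have no background here.

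**Figure D5:**
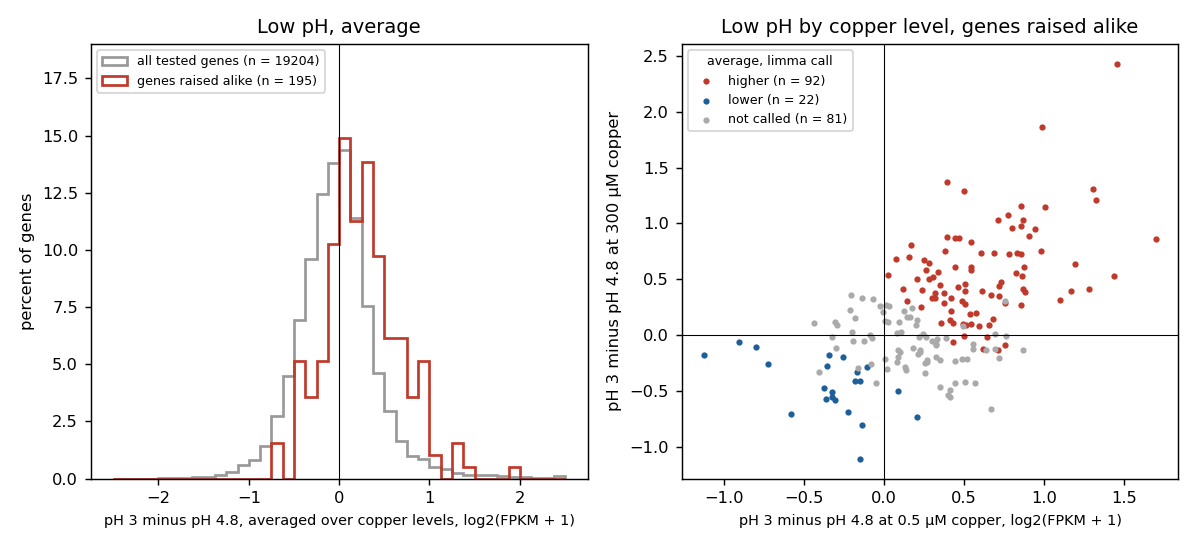
Left, share of genes by the difference between pH 3 and pH 4.8 averaged over both copper levels, in log2(FPKM + 1) with values beyond ±2.5 in the end bins, for the 195 genes (red) and all 19204 tested (grey). Right, the same difference at 0.5 µM (x axis) and 300 µM copper (y axis) for the 195 genes, coloured by the limma call on the average: the 92 genes called higher lie mainly in the upper right and the 22 called lower mainly in the lower left.

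The pH difference at each copper level is given without a test, since the selection bounded how far the values at both levels could lie apart. At 0.5 µM copper the median difference between pH 3 and pH 4.8 was 0.34 log2 units in the 195 genes and -0.06 in all genes tested, and at 300 µM copper it was 0.12 and -0.04. The value of 0.12 was 0.20 without replicate 3 of pH 3 with 300 µM copper and 0.08 without replicate 1. All 3 libraries at pH 3 were above all 3 at pH 4.8 for 98 of the 195 genes at 0.5 µM (22.1% of all tested genes) and below them for 19 (31.7%). At 300 µM the numbers were 63 (21.8%) and 33 (26.5%). For 44 genes the pH 3 libraries were higher at both copper levels without overlap (8.47% of all tested), and for 9 they were lower at both (15.2%). The order of the pH values turned between copper levels without overlap at either for 7 genes, 3.59% of the 195 against 5.46% of all tested. All 7 were higher at pH 3 with 0.5 µM copper, an order that 2.81% of all tested genes had. The share of the set that was separate and higher at pH 3 was thus larger at 0.5 µM copper, and the share that was separate and lower was larger at 300 µM.

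By the order of the 4 group means, 103 genes followed the sequence pH 4.8 with 0.5 µM, pH 3 with 0.5 µM, pH 4.8 with 300 µM and pH 3 with 300 µM copper from low to high. Another 47 had the same order at 0.5 µM but were higher at pH 4.8 under copper, 31 were higher at pH 4.8 at both copper levels, and 11 were higher at pH 4.8 at 0.5 µM alone. In the 3 remaining genes the mean at pH 3 with 0.5 µM copper exceeded that at pH 4.8 with 300 µM. These were Cs7g17390, orange1.1t01953 and orange1.1t05016.

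The largest rises at low pH were found in 4 genes whose libraries did not overlap between pH values at either copper level. Cs7g17390 on chromosome 7 (13105136 to 13110104) was at 1.54, 1.20 and 2.87 FPKM at pH 4.8 and 8.16, 5.87 and 6.14 FPKM at pH 3 when copper was 0.5 µM, and at 4.76, 3.62 and 8.39 FPKM and 41.48, 29.33 and 29.48 FPKM with 300 µM. The average difference was 1.95 (SE 0.18, limma adjusted p = 3.5e-06), with each of the 6 libraries at pH 3 above all at pH 4.8 with the same copper. Its copper differences were 2.16 at pH 3 and 1.20 at pH 4.8, and with each library left out in turn the latter ranged from 0.85 to 1.48, and it met the criteria in 6 of 12 cases.

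Cs5g26860 on chromosome 5 (29572599 to 29575567) was at 2.51, 2.22 and 2.84 FPKM at pH 4.8 and 7.48, 5.45 and 5.18 FPKM at pH 3 when copper was 0.5 µM, and at 12.24, 12.57 and 10.94 FPKM and 43.68, 51.36 and 43.27 FPKM with 300 µM. Low pH raised it by 1.43 on average (SE 0.09, limma adjusted p = 1.6e-07). The gene orange1.1t01953 on unplaced sequence (30873701 to 30884575) measured 5.39, 3.57 and 5.77 FPKM at pH 4.8 and 13.83, 12.79 and 13.66 FPKM at pH 3 when copper was 0.5 µM, and 13.32, 9.04 and 13.41 FPKM and 34.62, 27.32 and 30.25 FPKM with 300 µM. Low pH raised it by 1.31 (SE 0.12, limma adjusted p = 2.2e-06), with 1.31 at each copper level, and its means at 300 and 0.5 µM copper had ratios of 2.43 at pH 4.8 and 2.29 at pH 3. Its values at pH 3 without excess copper overlapped with those at pH 4.8 with it.

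Cs6g07410 on chromosome 6 (9240619 to 9243745) was at 11.79, 9.90 and 11.82 FPKM at pH 4.8 and 42.25, 38.09 and 35.32 FPKM at pH 3 when copper was 0.5 µM, and at 62.99, 53.97 and 67.22 FPKM and 114.24, 122.82 and 99.78 FPKM with 300 µM. Low pH raised it by 1.28 on average (SE 0.08, limma adjusted p = 1.1e-07), by 1.70 at 0.5 µM and 0.86 at 300 µM copper. Of the 4 genes it had the smallest p-value, and its 4 groups stood in steps without overlap.

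Among genes lower at pH 3 without overlap at either copper level, the differences were smaller. The largest falls by average, in Cs8g18360 (-0.65, SE 0.17, limma adjusted p = 0.0069), Cs8g18020 (-0.65, SE 0.19, limma adjusted p = 0.013) and Cs4g12540 (-0.63, SE 0.13, limma adjusted p = 0.0016), came with overlap at 1 copper level and were picked out after their values were seen. Cs7g01390 on chromosome 7 (292473 to 295947) was at 45.70, 45.06 and 45.76 FPKM at pH 4.8 and 34.23, 34.21 and 37.25 FPKM at pH 3 when copper was 0.5 µM, and at 125.10, 117.13 and 113.80 FPKM and 79.88, 79.20 and 78.29 FPKM with 300 µM. Its average difference was -0.47 (SE 0.05, limma adjusted p = 4.6e-06), with each of the 6 libraries at pH 3 below all at pH 4.8 with the same copper. Cs5g04430 on chromosome 5 (2550172 to 2552782) was at 9.39 ± 0.235 and 7.91 ± 0.754 FPKM at pH 4.8 and pH 3 with 0.5 µM copper and at 30.1 ± 2.74 and 18.3 ± 2.94 FPKM with 300 µM, an average difference of -0.46 (SE 0.08, limma adjusted p = 0.00047). Both genes kept a copper difference above 1 with each library left out.

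Cs5g08710 on chromosome 5 (5749487 to 5750939), which is also among the 6 most abundant, was at 204 ± 28.2 and 164 ± 13.7 FPKM at pH 4.8 and pH 3 with 0.5 µM copper and at 605 ± 21.9 and 407 ± 72.8 FPKM with 300 µM. Its average difference was -0.45 (SE 0.09, limma adjusted p = 0.0014). Cs6g08320 on chromosome 6 (10287457 to 10291775) was at 6.85 ± 1.38 and 5.20 ± 0.271 FPKM with 0.5 µM copper and at 19.3 ± 0.960 and 12.9 ± 1.62 FPKM with 300 µM, an average of -0.44 (SE 0.09, limma adjusted p = 0.0011). In each of these 4 genes the pH difference was larger under excess copper, which was not tested.

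Of the other genes named for their copper response, low pH raised orange1.1t04179 by 0.88 (SE 0.20, limma adjusted p = 0.0028), Cs4g01680 by 0.90 (SE 0.12, limma adjusted p = 5e-05), orange1.1t04173 by 0.95 (SE 0.10, limma adjusted p = 8.8e-06) and Cs3g22470 by 0.32 (SE 0.08, limma adjusted p = 0.0042). It lowered Cs3g17390, with -0.32 (SE 0.07, limma adjusted p = 0.0018). The other 9 of the steepest, most abundant and most equal genes were not called, with limma adjusted p from 0.051 for Cs6g05260 to 0.99 for Cs3g19960.

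The 195 genes were spread over all 9 chromosomes and the unplaced sequence. Chromosome 5 held 31 of them (1.29% of its listed annotated genes), chromosome 7 held 27 (1.19%) and chromosome 8 held 8 (0.602%), and the other chromosomes lay between 0.736% and 1.23%. Unplaced sequence held 27 (0.994%). The plus strand carried 52.8% of the 195 and 50.5% of all annotated genes. The span from start to end had a median of 2620 bp in the set, from 189 to 19424 bp, and of 3220 bp in all annotated genes.

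Some of the genes were next to each other in the list, though not always close on the chromosome. In the order of listed annotated genes, 23 of the 195 had another of the 195 as a direct neighbour. Of the 390 places next to a gene of the set, 24 (6.15%) were held by another gene of the set, which makes up 1.04% of annotated genes. The 23 genes formed 11 runs, 10 pairs and 1 run of 3, and 9 of the 11 runs lay on 1 strand. From first start to last end the runs covered 946 to 99967 bp. A pair on unplaced sequence was counted too, where the order was taken as that of 1 chromosome. The 359 genes of other kinds next to the 195 had median copper differences of 0.12 at pH 3 and 0.09 at pH 4.8, against 0.03 and -0.01 in all annotated genes. Neighbours can be copies of each other, and no source used here says how reads mapping to several places were counted, which may tie values within a run to each other.

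The run of 3 lay on chromosome 6 from 20228505 to 20233056, all on the plus strand. Cs6g20920 was at 1.31 to 1.36 FPKM at pH 4.8 and 2.25 to 3.70 FPKM at pH 3 with 0.5 µM copper, and at 5.15 to 8.34 FPKM and 7.84 to 11.59 FPKM with 300 µM. Cs6g20930 was at 1.58 to 2.34 FPKM and 1.73 to 4.02 FPKM, and at 4.76 to 6.10 FPKM and 7.19 to 14.55 FPKM. Cs6g20940 was at 2.59 to 3.68 FPKM and 2.20 to 4.43 FPKM, and at 6.43 to 10.59 FPKM and 9.50 to 12.51 FPKM. All 3 were of a like, low level, and low pH raised the first (0.53, SE 0.13, limma adjusted p = 0.0044) and the second (0.64, SE 0.17, limma adjusted p = 0.0082), while the third was not called (0.12, limma adjusted p = 0.53).

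The pair with the highest level lay on chromosome 1. Cs1g17380 (20579790 to 20585066) was at 72.3 ± 6.67 and 117 ± 15.9 FPKM at pH 4.8 and pH 3 with 0.5 µM copper and at 348 ± 19.3 and 386 ± 35.8 FPKM with 300 µM (SD, n = 3). Its neighbour Cs1g17390 (20591252 to 20594610) was at 25.1 ± 1.39 and 26.6 ± 2.95 FPKM with 0.5 µM copper and at 54.3 ± 3.72 and 87.3 ± 2.03 FPKM with 300 µM. The former differed between pH values mainly at 0.5 µM copper (0.68 against 0.15) and the latter mainly at 300 µM (0.68 against 0.08), and neither of these contrasts between copper levels was tested. The average pH difference was called in both, at 0.41 (SE 0.08, limma adjusted p = 0.0006) and 0.38 (SE 0.06, limma adjusted p = 0.00027).

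On chromosome 5, Cs5g04540 (2629114 to 2629917) and Cs5g04550 (2633543 to 2634214) differed several-fold in level but had similar ratios. Cs5g04540 was at 43.04, 30.97 and 41.62 FPKM at pH 4.8 and 65.87, 51.38 and 59.62 FPKM at pH 3 when copper was 0.5 µM, and at 135.95, 107.54 and 143.45 FPKM and 218.12, 276.05 and 161.52 FPKM with 300 µM. Cs5g04550 was at 6.78, 6.47 and 6.14 FPKM and 13.89, 12.23 and 11.53 FPKM, and at 19.81, 22.62 and 19.95 FPKM and 34.97, 64.67 and 32.53 FPKM. In both genes replicate 2 was the highest at pH 3 with 300 µM copper. Their means at 300 and 0.5 µM copper had ratios of 3.35 and 3.22 at pH 4.8 and of 3.71 and 3.51 at pH 3, and low pH raised the genes by 0.67 (SE 0.13, limma adjusted p = 0.00092) and 0.92 (SE 0.14, limma adjusted p = 0.00013).

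Of the 195 genes, 3 (1.54%) overlapped another listed gene, and the share in all annotated genes was not counted. Whether counting used the strand is not given in the sources used here. They were Cs5g02590, Cs6g09420 and Cs9g17960, picked out after their values were seen. Cs6g09420 on chromosome 6 (11178822 to 11182318) was the most abundant of them, at 33.4 ± 1.19 and 34.3 ± 3.26 FPKM at pH 4.8 and pH 3 with 0.5 µM copper and at 110 ± 1.92 and 133 ± 13.0 FPKM with 300 µM (SD, n = 3).

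For each limit of the selection, the nearest gene inside and the nearest outside are given. At pH 3 Cs7g05510 was inside with a copper difference of 1.00 (1.0009) and Cs3g08320 outside with 0.999. At pH 4.8 Cs8g18710 was inside with 1.01 and Cs8g04860 outside with 0.995. For the gap, Cs3g03590 was inside with 0.992 and Cs1g01180 outside with 1.01. For the level at 300 µM copper, Cs7g16810 was inside with 5.05 FPKM at pH 3 and Cs8g05480 outside with 4.74, while at pH 4.8 orange1.1t05016 was inside with 5.00 (5.0033) FPKM and Cs3g12750 outside with 4.87. The nearest genes on either side of the copper and gap limits thus had nearly equal values, less so at the level limit at pH 3. Of the 195, 47 had their smaller copper difference within 0.1 of the limit. A further 72 annotated genes met all criteria but the gap and 57 all but the level, and 8 loci without an annotated identifier met the same values.

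Genes left out by the gap had lower medians without excess copper. In the 59 genes whose copper difference was larger at pH 4.8 by at least 1, the median level at 0.5 µM copper was 1.45 FPKM at pH 4.8 and 4.49 FPKM at pH 3, against 5.21 and 7.21 FPKM in the 195. In the 13 where it was larger at pH 3 by at least 1, the medians were 2.93 and 4.45 FPKM. Averaged over copper levels, limma called 31 of the 59 (52.5%) higher and 5 (8.47%) lower at pH 3, and 10 of the 13 (76.9%) higher and 0 lower. Of 567 genes that reached a difference of 1 at pH 4.8 alone 160 (28.2%) were called higher and 107 (18.9%) lower, and of 166 that reached it at pH 3 alone 93 (56.0%) were called higher and 10 (6.02%) lower. These groups were cut from the same values as the set, and no difference between the groups was tested.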

How the data were processed

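Per the labels, RNA of 12 root libraries was sequenced, 3 in each of 4 groups, and groups were taken from the treatment label. Titles of the samples at pH 4.8 without excess copper give 5 µM copper where that label gives 0.5 µM; 0.5 µM was used. The authors deposited FPKM per gene, to 2 decimals, with position and strand. Per the submitters' processing notes, the tools were DESeq2 1.22.1, featureCounts 1.6.2, fastp 0.19.3, StringTie 1.3.4d and HISAT2 2.1.0; what each did is not stated. No source used here gives the build, the annotation or the strand setting.

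The 195 genes and the lists were chosen with earlier results of these data known. Copper differences are between log2(group mean FPKM + 1), and pH differences between group means of log2(FPKM + 1). Values near 1 FPKM are damped by the pseudocount of 1. Of the listed genes, 19204 reached a mean of 1 FPKM in some group and were tested (918 did not) in limma 3.58.1 (R 4.3.3) with a variance trend, a mean per group over all 12 libraries and Benjamini-Hochberg adjustment over all genes tested, two-sided, with a threshold of 0.05. The fit was tested on simulated data. Depth was taken as the number of fragments at which FPKM values of short genes came closest to whole fragments; 76.1% to 79.0% of 882 to 958 values per library then lay within 0.15 of a whole number. No counts were rebuilt.

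Named genes are the 6 steepest, the 6 most abundant, the 4 with the smallest gap among those with both differences of at least 2, up to 4 with the largest pH difference in each direction without overlap, the longest runs of neighbours (equal lengths ordered by level) and those nearest each limit. Genes named outside this are said to be picked out after their values were seen. Alternatives were other pseudocounts, scalings, filters, variance models, the replicate number as a block, and each library left out.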

Additional observations from a re-analysis of the deposited data

Results flagged for a closer look

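In 7 of the 195 genes the order of the pH values turned between copper levels, with no overlap between the 3 libraries at pH 3 and the 3 at pH 4.8 at either level. This is 3.59% of the set against 5.46% of all 19204 genes tested, and the difference between these shares was not tested. All 7 were higher at pH 3 with 0.5 µM copper and lower at pH 3 with 300 µM, an order found in 2.81% of all genes tested. Differences between pH 3 and pH 4.8 in log2(FPKM + 1) were 0.44 at 0.5 µM and -0.43 at 300 µM copper for Cs4g12320, 0.41 and -0.55 for Cs5g04420, and 0.40 and -0.53 for Cs6g07210. They were 0.27 and -0.22 for Cs7g01380, 0.49 and -0.21 for Cs7g07000, 0.44 and -0.23 for Cs9g08050, and 0.21 and -0.73 for orange1.1t02784. In orange1.1t02784 on unplaced sequence (42734689 to 42737645), FPKM was 11.22, 10.01 and 11.21 at pH 4.8 and 13.52, 12.02 and 12.41 at pH 3 with 0.5 µM copper, and 51.42, 50.59 and 49.91 against 29.15, 30.80 and 30.31 with 300 µM. Averaged over copper levels, orange1.1t02784 was called lower at pH 3 (-0.26, SE 0.05, limma adjusted p = 0.0012), and the others of the 7 were not called. The difference between copper levels was not tested, because its size was among the criteria that chose the genes.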

How the results depend on the processing

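The number of genes that met the criteria stayed within 1.5 times of 195 under all alternatives run. It was 232 with a pseudocount of 0.1 (183 of the 195 among them), 220 with 0.5 (191), 180 under quantile normalization (163), 153 under median scaling (152), 141 with a gap under 0.5, and 252 or 135 with a level of 1 or 10 FPKM. With each library left out it ranged from 185 to 223, and 122 of the 195 met the criteria in all 12 cases. Leaving out replicate 1 at pH 3 with 300 µM copper removed the most, 23. Low pH was called to raise 80 to 95 and to lower 19 to 22 of the 195 with each library left out. Of all genes tested, 19.2% to 24.7% were then called higher and 25.7% to 30.1% lower. Under the other alternatives 91 to 99 of the 195 were called higher and 18 to 22 lower. The shares of all genes tested were then 21.2% to 25.1% and 24.8% to 28.7%, so the background moved as well. The pH calls of 8 genes named for them held in all 144 refits. These 8 were picked for large differences without overlap, so this says little about the other calls. The labels do not say whether libraries with the same replicate number were handled together, and this was not tested. Of 18 same-numbered pairs, 7 correlated above 0.1 (range -0.22 to 0.24), and 7 of 12 libraries correlated best with a library of their own number. Values for pairs of unlike number are not given, and the number of best matches to expect without shared handling was not worked out. These correlations therefore do not decide the question. With a replicate block, 95 of the 195 genes were called higher (22% of all genes tested) and 22 lower (28.7%). The median copper difference at pH 4.8 moved from 1.52 to 1.67 with a pseudocount of 0.1; with each library left out it ranged from 1.49 to 1.58, that at pH 3 from 1.29 to 1.40, and the median pH differences from 0.28 to 0.38 at 0.5 µM and from 0.08 to 0.20 at 300 µM copper. In a gene of 1 kb, depth limits values near 0.15 FPKM, and such values occur without excess copper in Cs2g13800, Cs7g13810 and orange1.1t02833. Shorter genes, down to 189 bp in the set, meet this limit at higher values, and those that do were not listed.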
